A study of Mus musculus with 30 samples.

Results

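The question was in which genes the loss of CREB3L3 and the loss of PPARα did not simply add up in the fasted mouse liver. Male wild-type (WT) mice, mice without CREB3L3 (CREB3L3−/−), mice without PPARα (PPARα−/−) and mice without either factor (PPARα/CREB3L3−/−, here the combined knockout) were compared by Affymetrix Mouse Gene 1.1 ST arrays of the liver, 1 array per animal. The 15 livers described here came from mice of about 8 weeks that had fasted for 16 h (4 WT, 4 CREB3L3−/−, 3 PPARα−/− and 4 combined knockouts). The other 15 of the 30 livers came from mice of the same genotypes fed a ketogenic diet for 4 days, and they serve as a second set of animals and enter the common estimate of the spread behind every P. All mice were on a C57BL/6 background, both knockouts are germline and affect every tissue, and the combined line was bred from the single lines. For each probe set the interaction was computed as the change from PPARα−/− to the combined knockout minus the change from WT to CREB3L3−/−, on the log2 scale. An interaction of 0 means that the combined knockout lies where the changes of the single knockouts add up to, a positive one that it lies above that sum, and a negative one below it. Of the 18820 genes measured by a probe set with 1 gene symbol, 157 (0.834%) departed from the sum at P under 0.001 with a departure over 1.2-fold.

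PPARα is a nuclear receptor that fatty acids activate. It binds DNA together with RXR and switches on the oxidation of fatty acids, the making of ketone bodies and the secretion of the hormone FGF21 in the fasted liver. CREB3L3, also called CREBH, is a bZIP transcription factor held in the membrane of the endoplasmic reticulum, released by cleavage in the Golgi, and highly expressed in liver and small intestine. It is known for apolipoprotein genes, and it is reported to act on Fgf21 together with PPARα. In the simplest model, factors that act on a gene independently have effects that add on a log scale.

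Creb3l3 itself checked the labels. Livers with the intact gene had a log2 signal of 10.97 to 11.28 (WT) and of 10.52 to 10.69 (PPARα−/−), against 4.67 to 5.14 in the CREB3L3−/− livers and 4.53 to 5.36 in the combined knockouts. The Ppara signal was 10.08 to 10.41 in WT and 8.96 to 9.35 in PPARα−/− livers, but this allele removes only a part of the gene, so the signal is no check of the genotype. The markers of hepatocytes were high in every group, with the mean of 11 genes between 12.62 and 12.92. The medians of the 15 arrays lay between 4.26 and 4.38, and livers of the same genotype correlated at 0.981 to 0.991. Arrays carry no read depth, and the number of livers, with only 3 in the PPARα−/− group, limits the precision. Over all genes the interaction had a median of -0.01 and an SD of 0.29, and its median standard error (SE) was 0.20.

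The combined knockout lay above the sum in 92 genes, which is 0.489% of the genes tested, and below it in 65 genes, which is 0.345%. Over all 35556 probe sets 271 were called, or 0.762%, where about 35.6 would be expected at P under 0.001 alone. Of these probe sets 120 lay above and 151 below the sum. The excess of positive departures thus held for the brightest probe set of each gene, not over all probe sets. At an adjusted p under 0.05 the interaction remained in 41 genes (0.218%), 27 above and 14 below the sum. The median departure was 1.02 in the positive genes, with a range of 0.29 to 3.01, and -0.72 in the negative genes, with a range of -2.85 to -0.27, all on the log2 scale. The departure was larger than 2-fold in 66 of the 157 genes. In 109 genes the combined knockout had changed from WT by no more than the sum of the single knockouts, in 30 genes it had changed by more and in the other direction, and in 18 genes by more in the same direction.

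**Figure D1:**
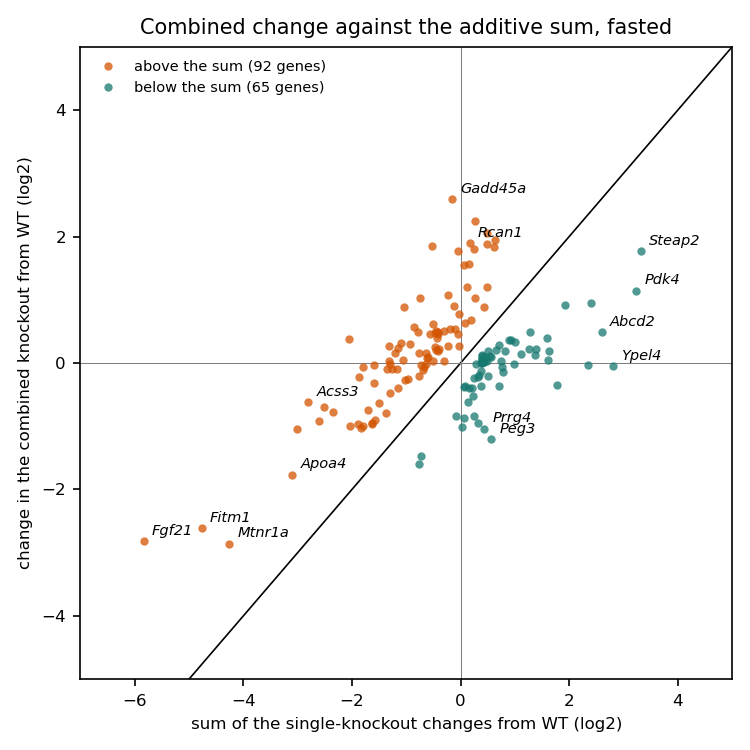
Each point is 1 of the 157 genes, with the sum of its single-knockout changes from WT on the x axis and its change in the combined knockout from WT on the y axis, both as log2 differences of group means. The line marks equality. The genes were chosen for their departure from it, which was as small as 0.295 or -0.267, so some lie close to the line. Fgf21, Fitm1 and Mtnr1a lie at the lower left with a combined change far smaller than the sum, whereas Gadd45a and Rcan1 changed only in the combined knockout.

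The largest positive interaction was that of Fgf21, the fasting hormone of the liver. Its log2 signal in the WT livers was 7.35, 6.96, 6.84 and 6.32. The PPARα−/− livers gave 3.52, 4.13 and 3.55, the CREB3L3−/− livers 3.92, 4.19, 4.10 and 4.46, and the combined knockouts 4.41, 4.46, 3.74 and 3.57. All WT livers were thus above every knockout liver, and the 3 knockout genotypes overlapped with each other. Fgf21 was lower by 3.13 without PPARα and by 2.70 without CREB3L3, and the combined knockout was lower by 2.82, which gave an interaction of 3.01 (SE 0.66, adjusted p = 0.056). The sum of both losses would have put the combined knockout at a signal of 1.03, which is under 1.99, the 5th percentile of all signals, so the array could hardly have shown a combined loss of that size. Zfp979 was the only other gene of the 157 with a sum under that level. The sums of Mtnr1a (2.05), Themis (2.31) and Cenpm (2.67), described next, lay little above it. For Mtnr1a in particular the array could hardly have shown the whole sum.

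Several other genes were lower in each single knockout, and no lower in the combined one than in the lower of the single knockouts. Mtnr1a, a melatonin receptor gene, had a signal of 5.99 to 6.67 in WT, 4.87 to 5.45 in CREB3L3−/−, 3.04 to 3.25 in PPARα−/− and 3.29 to 3.79 in combined knockout livers. The last 2 groups did not overlap with the others and lay close together, and the interaction was 1.41 (SE 0.28, adjusted p = 0.045). Tmem28 was at 5.13 to 6.46 in WT, and between 4.29 and 5.29 in all knockout livers, with an interaction of 1.58 (SE 0.31, adjusted p = 0.045). Olig1, a bHLH factor gene, lay between 5.37 and 6.09 in WT, between 3.97 and 4.65 in both single knockouts, and between 4.42 and 5.43 in the combined knockouts (interaction 1.82, SE 0.35, adjusted p = 0.037). Cenpm, a centromere protein gene, followed the same order at 4.82 to 6.61 in WT and 3.76 to 5.18 in the knockouts. Its interaction of 1.96 (SE 0.52, adjusted p = 0.12) was the less stable, with P rising to 0.0045 without PPARα−/− replicate 1.

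Themis, a signalling gene best known from developing T cells, went further than these. It was at 4.06 to 4.65 in WT, at 3.14 to 3.39 in CREB3L3−/− and at 3.22 to 3.67 in PPARα−/− livers, and returned to 4.08 to 5.45 in the combined knockouts. CREB3L3 ablation thus lowered Themis by 1.11 with PPARα and was followed by a signal higher by 1.33 without it, and the interaction of 2.44 (SE 0.31) had an adjusted p of 0.000362. The markers of T and NK cells had the same directions in part. Their mean signal was 3.53 to 3.68 in WT, 3.17 to 3.50 in CREB3L3−/−, 3.35 to 3.51 in PPARα−/− and 3.29 to 3.47 in combined knockout livers, with 9 to 11 of the 11 genes below the median level of 4.29. Of the 11 genes 10 had an interaction above 0, with a median of 0.29, and their median change from WT was -0.33 in CREB3L3−/− and -0.15 in PPARα−/−. The part of these cells in the Themis result was not tested.

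Of the genes that the study names, Mfsd2a, Cidec, Pck1, Cpt1a and G6pc had interactions that did not pass the limits. Mfsd2a, a transporter of lysophospholipids, was at 11.01 to 11.20 in WT, 6.78 to 8.17 in CREB3L3−/−, 5.41 to 6.68 in PPARα−/− and 3.57 to 4.15 in combined knockout livers. The combined knockout was below all others, and the interaction of 1.58 (SE 0.64, adjusted p = 0.39) was not called. The sum would have put the combined knockout of Mfsd2a at 2.29, little above 1.99, the 5th percentile of all signals. Cidec, a lipid droplet protein, was at 8.24 to 10.33 in WT, 5.11 to 5.78 in CREB3L3−/−, 8.02 to 9.68 in PPARα−/− and 4.66 to 5.84 in the combined knockouts, and its interaction was 0.58 (SE 0.60, adjusted p = 0.86). For Pck1, the first committed enzyme of gluconeogenesis, the interaction was 0.21 (SE 0.51). The common spread behind this SE includes the ketogenic CREB3L3−/− livers, with an SD of 1.40, against 0.06 to 0.13 in the fasted groups. All fasted PPARα−/− livers lay above and all fasted CREB3L3−/− livers below the other groups. For Cpt1a, which takes fatty acids into mitochondria, the interaction was -0.31 (SE 0.12, adjusted p = 0.34). G6pc, the enzyme that releases free glucose, was at 9.16 to 10.13 in the combined knockouts and at 10.90 to 12.10 in all other livers. The groups did not overlap, but its interaction of -1.45 (SE 0.58) had an adjusted p of 0.38. Here too the ketogenic CREB3L3−/− livers widened the common spread, with an SD of 1.33 against 0.06 to 0.62 in the fasted groups. Of the 32 measured genes that the study lists as lower in all knockouts, 9 were called positive, against 0.489% of all genes, and none negative. Their median interaction was 0.65 against -0.01 over all genes. That list was chosen on these same livers, so it is no independent evidence.

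A second kind of positive interaction was seen in genes that PPARα ablation lowered, and that were higher in the combined knockout than in PPARα−/−. Fitm1, a lipid droplet gene and PPARα target, was at 10.12 to 10.44 in WT and 9.12 to 9.80 in CREB3L3−/− livers. The PPARα−/− livers gave 5.94, 7.13 and 6.10, and the combined knockouts 7.99, 6.72, 8.02 and 7.88. Loss of CREB3L3 was thus followed by a signal lower by 0.89 with PPARα and higher by 1.26 without it. Neither of these changes passed P under 0.001 in limma, and the interaction was 2.15 (SE 0.51, adjusted p = 0.084). Acss3, a mitochondrial acyl-CoA synthetase of short chains, was at 7.88 to 8.27 in WT and at 5.08, 6.49 and 4.82 in PPARα−/− livers, but at 7.61, 6.43, 7.56 and 8.00 in the combined knockouts. The combined knockouts overlapped with the CREB3L3−/− livers at 7.33 to 8.35, and the interaction was 2.19 (SE 0.48, adjusted p = 0.056).

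Hadh, which catalyses the third step of mitochondrial β-oxidation, showed the same order on a smaller scale. It was at 11.54 to 11.80 in WT, 11.27 to 11.64 in CREB3L3−/−, 10.18 to 10.72 in PPARα−/− and 10.52 to 11.49 in combined knockout livers (interaction 0.87, SE 0.21, adjusted p = 0.084). Hsd17b10, which acts in isoleucine breakdown, was instead lower in each single knockout, and no lower in the combined one than in PPARα−/−. Its change from PPARα−/− to the combined knockout was only 0.14 (SE 0.11). It was at 10.96 to 11.40 in WT and at 10.03 to 10.23 in PPARα−/− livers. The combined knockouts, at 10.07 to 10.47, overlapped with PPARα−/−, and CREB3L3−/− livers lay between, at 10.50 to 10.86. The interaction of Hsd17b10 was 0.69 (SE 0.15, adjusted p = 0.056). Crip2, a LIM domain protein, was at 8.48 to 8.58 in WT, 7.86 to 8.11 in CREB3L3−/−, 7.10 to 7.28 in PPARα−/− and 7.39 to 7.86 in combined knockout livers. Its interaction was 0.93 (SE 0.18, adjusted p = 0.040). Rfx4, an RFX transcription factor gene, had the lowest P value of all genes named here. It was at 3.98 to 4.55 in PPARα−/− livers and at 4.93 to 5.75 in all others, including the combined knockouts at 5.12 to 5.70, with an interaction of 1.74 (SE 0.22, adjusted p = 0.000362).

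Antxr2, a receptor for anthrax toxin that binds matrix proteins, also returned to the WT level. It was at 8.31 to 8.66 in WT, 7.69 to 7.92 in CREB3L3−/−, 7.95 to 8.24 in PPARα−/− and 8.22 to 8.56 in combined knockout livers. The CREB3L3−/− livers were below all others, and the interaction was 1.07 (SE 0.16, adjusted p = 0.0025).

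In 44 genes all combined knockouts stood above or below all other fasted livers, 33 of them above and 11 below. This compares with 3.51% of all genes, but the genes were chosen from the same livers, so nothing is read from it. For WT the numbers were 10 above and 8 below (2.33% of all genes stood apart), for PPARα−/− 13 above and 14 below (2.32%), and for CREB3L3−/− 18 above and 8 below (1.67%). In 53 genes no genotype stood apart. Gadd45a, a stress-inducible gene of growth arrest and DNA repair, had the largest interaction among the genes raised in the combined knockout. Its signal there was 7.12, 8.43, 7.90 and 6.05, against 4.49 to 4.97 in WT, 3.84 to 4.74 in CREB3L3−/− and 4.29 to 5.76 in PPARα−/− livers. Every combined knockout was above every other liver, and the interaction was 2.75 (SE 0.57, adjusted p = 0.047).

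Rcan1, an inhibitor of the phosphatase calcineurin, had a signal of 9.45, 9.37, 9.38 and 8.70 in the combined knockouts and of 7.06 to 7.98 in the other 11 livers. Neither single knockout differed from WT by more than 0.09, and the interaction was 1.73 (SE 0.25, adjusted p = 0.0025). Meg3, a long noncoding RNA of an imprinted locus, was at 8.67, 8.36, 9.09 and 8.89 in the combined knockouts, at 6.16 to 7.53 in WT, at 5.60 to 6.77 in CREB3L3−/− and at 6.45 to 7.59 in PPARα−/− livers. All combined knockouts were higher, and the interaction was 2.38 (SE 0.41, adjusted p = 0.015). Aqp8, a water channel, was at 8.14 to 8.56 in the combined knockouts and at 5.88 to 7.50 elsewhere. Its interaction of 1.83 (SE 0.47, adjusted p = 0.11) had a P of 0.0042 without PPARα−/− replicate 1. Fbxo44, an F-box protein gene, had an interaction of 1.93 (SE 0.51, adjusted p = 0.12) with overlapping groups, since PPARα−/− replicate 3 at 5.98 lay within the combined knockouts at 5.55 to 6.12.

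Smaller but tight departures of this kind were found for enzymes. Akr1a1, an aldehyde reductase, was at 11.00 to 11.08 in the combined knockouts and at 10.42 to 10.74 in the other livers (interaction 0.50, SE 0.09, adjusted p = 0.015). Mcee, the methylmalonyl-CoA epimerase of propionate breakdown, was at 9.79 to 10.09 against 9.18 to 9.61 (interaction 0.63, SE 0.13, adjusted p = 0.050). Pcsk6, a proprotein convertase, was at 9.35 to 9.55 against 8.41 to 9.14 (interaction 0.87, SE 0.15, adjusted p = 0.013). In all 3 the combined knockouts did not overlap with any other group.

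Peg3, an imprinted zinc finger gene, moved the other way. Its signal was 5.82, 5.92, 5.59 and 5.49 in the combined knockouts, 7.43, 7.69, 7.87 and 7.70 in CREB3L3−/−, 6.97, 6.60 and 6.54 in PPARα−/−, and 6.75 to 7.03 in WT livers. CREB3L3 ablation was followed by a higher signal with PPARα (0.77) and a lower one without it (-1.0). The interaction was -1.77 (SE 0.23) with an adjusted p of 0.000362, and the CREB3L3−/− livers were above and the combined knockouts below all others. Maged1, a MAGE family gene, was at 7.66 to 7.84 in the combined knockouts and at 8.17 to 8.62 in all other livers (interaction -0.75, SE 0.11, adjusted p = 0.0035). Peg3 and Meg3 were the only called genes among 17 measured imprinted genes, a list drawn up after their values had been seen, and its median interaction was 0.05.

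CREB3L3 belongs to a family of factors that bind cAMP response elements (CRE), so the promoters of the 157 genes were searched for the CRE TGACGTCA and for the related TGACGTG on both strands. The windows run from 250 bases before to 50 bases after each RefSeq transcription start (GRCm38.p6), and 136 of the 157 genes had one. The palindromic TGACGTCA was found in 7 of the 136 genes (5.15%) and in 2.03% of 27025 genes with a window. TGACGTG, which shares no position with it, was found in 4 genes (2.94%) and in 2.22% of all genes. AGGTCANAGGTCA, the ideal element of the PPARα and RXR pair, was found in 0 of the 136 genes and 0.0481% of all genes, which says only that these letters are not in these windows. Rcan1, Meg3 and Peg3, whose combined knockouts stood clear of all other livers, and Ypel4, which had the largest negative interaction, were among the genes with a match. Their windows are shown because they are the named genes with either element, in lower case from 5′ to 3′ on the strand of the gene, with the match in capitals.
Rcan1, chr16:92400029-92400328, minus strand, 1 of 2 windows of this gene, match starting at -175 from the transcription start: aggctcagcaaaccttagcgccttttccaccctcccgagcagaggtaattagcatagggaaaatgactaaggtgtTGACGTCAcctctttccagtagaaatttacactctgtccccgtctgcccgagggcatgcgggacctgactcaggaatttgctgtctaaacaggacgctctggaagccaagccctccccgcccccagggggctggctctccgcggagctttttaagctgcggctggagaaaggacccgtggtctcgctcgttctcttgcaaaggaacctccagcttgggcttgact
Meg3, chr12:109540746-109541045, plus strand, 1 of 2 windows, match starting at -57: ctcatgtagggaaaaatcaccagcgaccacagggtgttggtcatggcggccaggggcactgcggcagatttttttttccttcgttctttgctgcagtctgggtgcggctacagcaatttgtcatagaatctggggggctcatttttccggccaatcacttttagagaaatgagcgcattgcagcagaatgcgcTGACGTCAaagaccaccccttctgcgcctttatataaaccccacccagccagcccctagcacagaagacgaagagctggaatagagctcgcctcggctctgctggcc
Peg3, chr7:6730370-6730669, minus strand, match starting at -178: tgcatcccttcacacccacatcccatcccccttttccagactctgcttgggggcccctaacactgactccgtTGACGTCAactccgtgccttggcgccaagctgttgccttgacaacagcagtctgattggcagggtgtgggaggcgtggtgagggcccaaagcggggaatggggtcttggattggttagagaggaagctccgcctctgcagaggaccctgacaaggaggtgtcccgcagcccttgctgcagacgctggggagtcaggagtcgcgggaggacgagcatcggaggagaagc
Ypel4, chr2:84733954-84734253, plus strand, match starting at -187: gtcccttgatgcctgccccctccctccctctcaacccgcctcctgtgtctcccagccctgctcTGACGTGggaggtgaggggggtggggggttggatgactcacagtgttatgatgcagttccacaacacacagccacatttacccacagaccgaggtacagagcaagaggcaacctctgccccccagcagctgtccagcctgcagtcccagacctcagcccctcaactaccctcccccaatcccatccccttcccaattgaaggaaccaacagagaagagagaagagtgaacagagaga
A match is a stretch of letters and no measured binding.

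Ypel4, a yippee-like gene, stood for a group that was raised by PPARα ablation only as long as CREB3L3 was present. Its signal was 7.48, 5.31 and 6.75 in the PPARα−/− livers, 3.40 to 3.98 in WT, 3.22 to 3.81 in CREB3L3−/− and 3.52 to 3.68 in combined knockout livers. The last 3 groups overlapped entirely and lay under the median level of 4.29, and the interaction was -2.85 (SE 0.51, adjusted p = 0.016). Adgrf1, an adhesion G protein-coupled receptor, was at 7.13, 6.37 and 6.93 in PPARα−/− livers, at 4.40 to 5.56 in WT, 5.44 to 5.95 in CREB3L3−/− and 4.90 to 5.24 in the combined knockouts (interaction -2.37, SE 0.52, adjusted p = 0.056). Fam107a, an actin-associated stress gene, was at 7.29, 5.50 and 5.56 against 3.92 to 4.95 in all other livers. Its interaction of -2.12 (SE 0.53, adjusted p = 0.10) was smaller without PPARα−/− replicate 1, with a P of 0.0042. Celsr1, a planar cell polarity cadherin, was at 6.26 to 6.55 in PPARα−/− livers and at 3.89 to 5.92 elsewhere (interaction -1.46, SE 0.36, adjusted p = 0.090). Erdr1, a small protein first described in erythroid cells, was at 11.38 to 11.62 in PPARα−/− livers and at 9.72 to 10.92 in the others (interaction -1.55, SE 0.39, adjusted p = 0.096). In each of these 5 genes every PPARα−/− liver was above every liver of the other genotypes.

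In a further set the high level belonged to CREB3L3−/− livers and was lower when PPARα was missing too. Abcd2, a peroxisomal transporter of very long chain fatty acids, was at 6.02, 6.63, 5.47 and 6.75 in CREB3L3−/−, 4.03 to 4.45 in WT, 4.66 to 4.93 in PPARα−/− and at 4.45, 4.70, 4.13 and 5.57 in the combined knockouts. The interaction was -2.11 (SE 0.42, adjusted p = 0.045), and the combined group overlapped with CREB3L3−/− only through the liver at 5.57. Pdk4, the kinase that shuts off pyruvate dehydrogenase in fasting, was at 9.35, 9.47, 9.77 and 9.35 in CREB3L3−/−, at 7.79, 8.74, 7.98 and 7.79 in combined knockout, 7.34 to 7.90 in PPARα−/− and 6.36 to 7.57 in WT livers. The CREB3L3−/− livers were above all others, and the interaction of -2.09 (SE 0.55, adjusted p = 0.12) had a P of 0.0033 without PPARα−/− replicate 1. Prrg4, a vitamin K-dependent membrane protein gene, was at 6.94 to 7.40 in CREB3L3−/− livers, 5.0 to 5.19 in WT, 3.13 to 3.88 in PPARα−/− and 3.46 to 4.46 in the combined knockouts (interaction -1.47, SE 0.38, adjusted p = 0.11).

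Steap2, a metalloreductase of iron and copper uptake, was raised in all 3 knockouts to a similar level. It was at 4.94 to 5.10 in WT, 6.32 to 6.51 in CREB3L3−/−, 6.80 to 7.03 in PPARα−/− and 6.49 to 7.03 in combined knockout livers. The WT livers were below all others, and the interaction was -1.55 (SE 0.32, adjusted p = 0.045). A second probe set of Steap2, at a mean signal of only 2.50, gave -0.12 (SE 0.20). Apoa4, an apolipoprotein of the CREB3L3 programme, differed from this, since it was low whenever CREB3L3 was missing. It was at 13.001, 12.98, 12.86 and 11.71 in WT, 8.71 to 9.07 in CREB3L3−/−, 13.15 to 13.39 in PPARα−/− and 10.81 to 10.99 in combined knockout livers. The 4 genotypes did not overlap, and Apoa4 was lower by 3.73 without CREB3L3 when PPARα was present and by 2.40 when it was absent. Its interaction was 1.33 (SE 0.29, adjusted p = 0.056), whereas a dimmer probe set of Apoa4 gave -0.31 (SE 0.48).

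**Figure D2:**
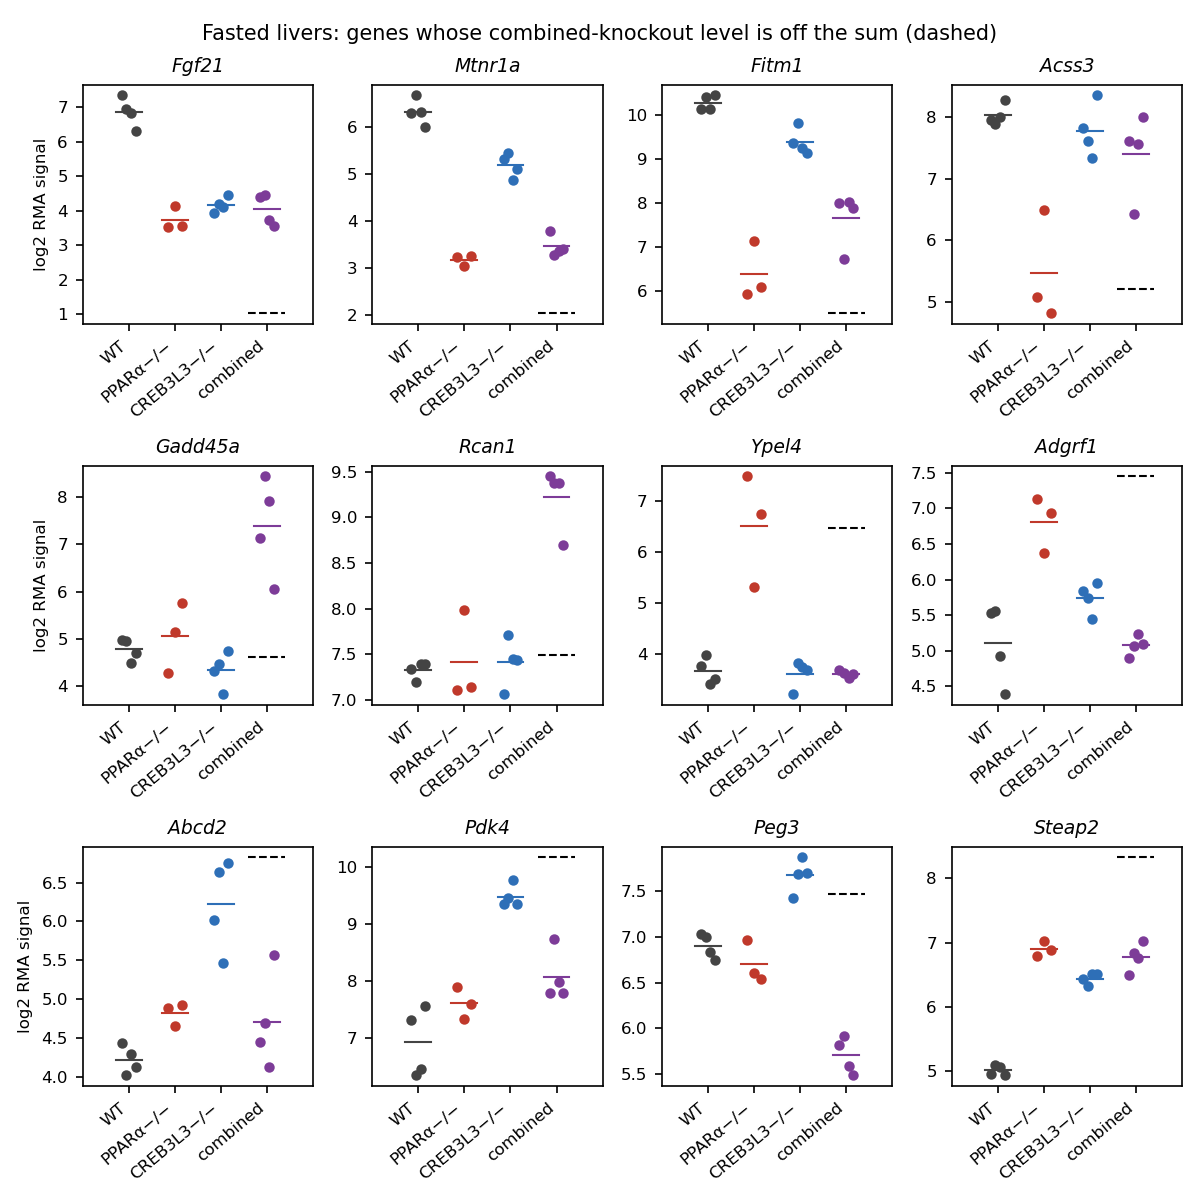
Log2 RMA signal of 12 genes in each of the 15 fasted livers, with points for livers, short lines for the group means and a dashed line where the combined knockout would lie if the single-knockout changes from WT added up. The dashed line is at 1.03 for Fgf21, under all measured levels, and the combined knockouts of Rcan1 at 8.70 to 9.45 lie above it whereas those of Ypel4 at 3.52 to 3.68 lie far below it.

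CREB3L3 ablation changed 70 of the 157 genes at P under 0.001 only when PPARα was absent, against 2.43% of all genes changed in that comparison, and 51 of these 70 had a positive interaction. In 44 genes CREB3L3 ablation passed that limit only when PPARα was present, against 1.64% of all genes, and 27 of these were negative. It passed in both backgrounds in opposite directions in 3 genes (Themis, Zfp979 and Peg3), in the same direction in 2 (Apoa4 and Golt1a), and in neither in 38. These shares describe the interaction and use the same arrays.

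Several genes of cytosolic protein folding were among the negative interactions. The list of the 8 subunits of the CCT chaperonin, the ring that folds actin and tubulin, was drawn up after values had been seen. Of these subunits 5 were called, all negative (Tcp1, Cct2, Cct5, Cct6a and Cct7), where 0.345% of all genes were called negative. The other 3 also lay below 0, and the median of the 8 was -0.45 against -0.01 over all genes. Cct2 was at 10.16 to 10.30 in CREB3L3−/−, 10.13 to 10.19 in PPARα−/−, 9.87 to 10.10 in WT and 9.89 to 10.06 in combined knockout livers (interaction -0.46, SE 0.09, adjusted p = 0.045). Both single knockouts were above WT and the combined knockouts overlapped with WT. Over the 8 subunits the mean signal was 9.51 to 9.63 in WT, 9.73 to 9.83 in CREB3L3−/−, 9.57 to 9.60 in PPARα−/− and 9.27 to 9.49 in the combined knockouts. The CREB3L3−/− livers had the highest and the combined knockouts the lowest levels, without overlap with any other group.

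Among 16 measured heat shock proteins and cochaperones, a list also made after the values were seen, 3 were called. All 3 were negative, where 0.345% of all genes were called negative, and 15 of the 16 lay below 0 (median -0.32). Dnajb1, the cofactor that starts HSP70 on its clients, was at 8.14 to 8.88 in CREB3L3−/− livers, 7.65 to 7.80 in WT, 7.08 to 7.67 in PPARα−/− and 6.59 to 7.15 in combined knockouts (interaction -1.09, SE 0.24, adjusted p = 0.053). Hsph1, an HSP110 nucleotide exchange factor, was at 10.18 to 10.84, 9.72 to 9.87, 8.97 to 9.69 and 8.54 to 9.11 in the same order (interaction -1.03, SE 0.26, adjusted p = 0.11). Stip1, which links HSP70 to HSP90, had an interaction of -0.76 (SE 0.17, adjusted p = 0.057). For all 3 the CREB3L3−/− mean was the highest and the combined mean the lowest. For the chaperones of the endoplasmic reticulum limma gave no call among 24 genes, with 4 genes above 0, a median of -0.29 (-0.17 without PPARα−/− replicate 3) and 13 genes at an unadjusted P under 0.05, which 9.86% of all genes reached. A second moderated test, IBMT, which ties the expected spread of a gene to its signal by local regression, gave 0 calls among them too, against 167 among all genes.

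Of 74 cytosolic ribosomal protein genes, a list not set beforehand, 12 were called negative, against 0.345% of all genes, and none positive. Their median was -0.23, and 70 genes lay below 0. Rpl13a was the one of these with an adjusted p under 0.05 (-0.37, SE 0.08, adjusted p = 0.048), and Rpl3 had the largest departure (-0.53, SE 0.12, adjusted p = 0.057). The mean over the 74 genes was 9.69 to 9.75 in WT, 9.86 to 9.97 in CREB3L3−/−, 9.78 to 9.88 in PPARα−/− and 9.75 to 9.84 in combined knockout livers. CREB3L3−/− was thus slightly higher than WT, and the combined knockouts overlapped with PPARα−/−. Ribosomal protein genes have many near-identical copies, and their probe sets cannot be fully told apart, so the 12 are not separate measurements.

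Some genes with known immune roles were among the positive interactions. H2-Ab1 and H2-Eb1, which each encode an MHC class II β chain, were 2 of 6 measured class II genes called, all 6 were above 0, and the median was 1.32. This list was made after the values were seen, and 0.489% of all genes were called positive. H2-Ab1 was at 8.08 to 8.48 in combined knockout, 7.66 to 8.34 in WT, 7.32 to 7.98 in CREB3L3−/− and 6.60 to 7.66 in PPARα−/− livers (interaction 1.41, SE 0.36, adjusted p = 0.11), and PPARα−/− replicate 1 was the lowest of all. Tlr2, a receptor for bacterial lipoproteins, had an interaction of 1.40 (SE 0.33, adjusted p = 0.084) and Tlr5, the receptor for flagellin, one of 1.29 (SE 0.26, adjusted p = 0.045). Il1a, an interleukin gene, followed with 1.29 (SE 0.28, adjusted p = 0.050), Relb, an NF-κB subunit, with 1.08 (SE 0.27, adjusted p = 0.10), Csf1, the macrophage growth factor, with 1.01 (SE 0.25, adjusted p = 0.090) and Ifngr2, a chain of the interferon γ receptor, with 0.70 (SE 0.13, adjusted p = 0.031). These 6 genes lie outside the rule for named genes and were picked after their values were seen. Macrophage markers shared the sign of these interactions. None of the 13 was called by limma or IBMT and 3 had an unadjusted P under 0.05, but 12 had an interaction above 0, with a median of 0.40, and their mean signal was 8.13 to 8.54 in combined knockout, 7.87 to 8.44 in WT, 8.13 to 8.33 in PPARα−/− and 7.69 to 7.99 in CREB3L3−/− livers. The pattern of the groups differed from that of the class II genes. The median change from WT in PPARα−/− was 0.02 for the markers and -0.71 for the class II genes. In CREB3L3−/− it was -0.29 and -0.23, and from PPARα−/− to the combined knockout 0.12 and 1.07. The part of macrophages in the immune genes was not tested, and in whole liver more cells of a type cannot be told apart from more RNA per cell.

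Interferon-stimulated genes gave no call among 24 measured by limma or IBMT, but 13 had an unadjusted P under 0.05 (9.86% of all genes), 23 of them had an interaction above 0 and the median was 0.75. Their mean signal was 7.71 to 8.50 in the combined knockouts, 7.11 to 7.93 in PPARα−/−, 6.53 to 6.95 in WT and 6.39 to 6.99 in CREB3L3−/− livers. The median rose to 1.03 without PPARα−/− replicate 2, the liver with the highest level in its group.

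**Figure D3:**
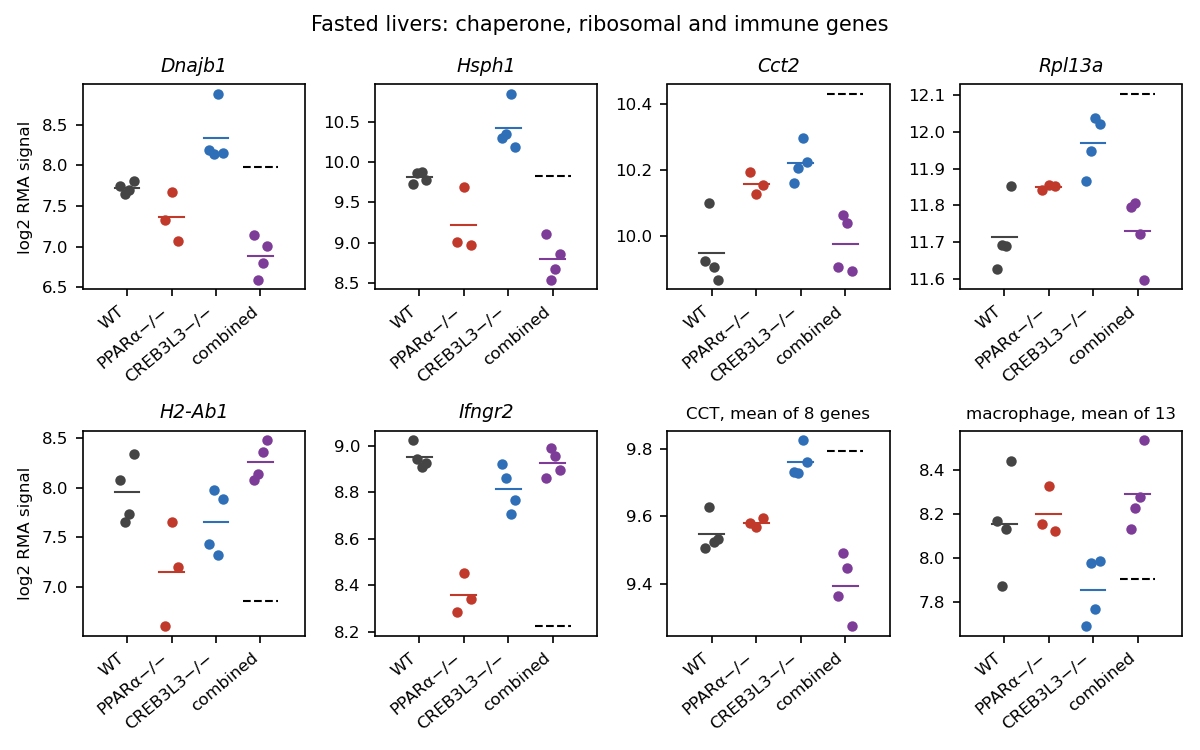
Log2 RMA signal in each of the 15 fasted livers (points), group means (short lines) and the additive level of the combined knockout (dashed) for 6 genes, the mean of 8 chaperonin genes and the mean of 13 macrophage markers. Dnajb1, Hsph1 and the chaperonin mean are highest in CREB3L3−/− and lowest in combined knockout livers, and Cct2 and Rpl13a of the combined knockouts lie below the additive level, while H2-Ab1, Ifngr2 and the macrophage markers lie above the additive level.

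Of 672 genes in the pathway, marker and study lists fixed for this comparison, 19 were called, against 0.834% of all genes. The study lists contribute to this count, although at least 1 of them was chosen on these livers. The known CREB3L3 targets that the study shows were all reported as lower in its fasted CREB3L3−/− livers. Without the study lists 12 of 643 genes were called. In mitochondrial fatty acid oxidation 1 of 18 genes was called (Hadh), the median was 0.03 (-0.04 without PPARα−/− replicate 1), and 9 genes lay above 0. Peroxisomal oxidation gave 1 call of 19 (Abcd2) with a median of -0.15. The ketone body list gave no call among 7 genes with a median of 0.12, glucose production none among 18 with a median of -0.08, and cholesterol synthesis none among 20 with a median of -0.23. At an unadjusted P under 0.05 in limma these 3 lists held 2, 2 and 1 genes, against 9.86% of all genes, and IBMT called 0 of them. These medians moved with single livers, to -0.10 for ketone bodies without PPARα−/− replicate 1, to -0.02 for glucose production without WT replicate 4 and to -0.03 for cholesterol synthesis without PPARα−/− replicate 2. Apolipoprotein genes gave 1 call of 24 (Apoa4), branched chain amino acid breakdown 2 of 20 (Hsd17b10 and Mcee), and glycolysis and pyruvate fate 1 of 13 (Pdk4). In the lysosome list Lamp1, a lysosomal membrane protein, had an interaction of 0.34 (SE 0.09) and Ctsd, the protease cathepsin D, one of 0.29 (SE 0.08), both with an adjusted p of 0.12, and no other of the 22 genes was called.

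Some lists had a median away from 0 with 1 call or none. NRF2 antioxidant genes had a median of 0.40 with 16 of 19 genes above 0, but it fell to 0.17 without PPARα−/− replicate 1. The integrated stress response had a median of 0.40 with 1 call of 22 (Fgf21), cytochromes P450 of families 1 to 3 had 0.35 with 26 of 30 genes above 0 and no call, and p53 target genes 0.10 (0.20 without PPARα−/− replicate 2) with 1 call of 16 (Gadd45a). Of the NRF2 and cytochrome genes 5 each had an unadjusted P under 0.05 in limma, and IBMT called 0. In the erythroid list Alas2, the haem synthesis enzyme of red cell precursors, was called with 1.16 (SE 0.30, adjusted p = 0.12). The mean of the 3 measured erythroid genes was 5.95 to 6.68 in WT and 5.75 to 6.21 in the knockouts, and its part in the Alas2 result was not tested. None of the 7 cholangiocyte, 9 neutrophil, 11 T and NK, 7 B and plasma, 11 stellate, 10 endothelial and 6 adipocyte markers was called by limma or IBMT, and 5 of these 61 genes had an unadjusted P under 0.05 in limma, against 9.86% of all genes. Of the immune cell markers among them, those above 0 were 10 of 11 for T and NK cells (median 0.29), 7 of 9 for neutrophils (median 0.18) and 5 of 7 for B and plasma cells (median 0.21), the direction of the macrophage markers and of the immune genes above.

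Genes that both single knockouts changed in the same direction show how often the sum held. Both passed the limits in 70 genes, 38 lower and 32 higher than WT. The interaction was called in 22 of them, 16 positive and 6 negative, and its median was 0.72 in the genes that were lower and -0.40 in those that were higher. In both directions the combined change was thus on balance smaller than the sum, but the WT livers enter the choice and the interaction with opposite sign, which by itself moves the median in this direction. In 16 of the 70 genes the 95% interval of the interaction lay within 1.5-fold of 0, 7 lower and 9 higher.

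Ldha, the lactate dehydrogenase subunit of muscle type, was among these. It was at 12.31 to 12.54 in WT, 11.55 to 11.86 in CREB3L3−/−, 11.87 to 12.00 in PPARα−/− and 11.06 to 11.32 in combined knockout livers, so that the combined change of -1.23 met the sum of -1.18 (interaction -0.05, SE 0.14). Tram2, a translocon-associated protein, fell by 0.91 and 1.12 in PPARα−/− and CREB3L3−/− livers and by 2.15 in the combined knockouts (interaction -0.13, SE 0.17). Miga2, which acts in mitochondrial fusion, changed by -1.48 against a sum of -1.40 (interaction -0.08, SE 0.19), and Rtf2, a replication factor, by -1.29 against -1.52 (interaction 0.23, SE 0.12). Pla2g12a, a secreted phospholipase, was higher by 1.5 against a sum of 1.56 (interaction -0.07, SE 0.21), and Smoc1, a matricellular protein, by 1.02 against 0.95 (interaction 0.07, SE 0.14).

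The ketogenic livers, which come from other mice, show in which of these genes the same departure was seen under the other regimen. The same interaction was far more frequent there, with 8.2% of all genes called positive and 13% called negative. Of the 92 genes positive in fasting 19 were called positive and 7 negative on the ketogenic diet, and of the 65 negative genes 30 were called negative and 5 positive. The sign was the same in 96 of the 157 genes. The difference between the 2 interactions had an adjusted p under 0.05 in 72 of the 157 genes, against 19.3% of all genes. The 157 genes were chosen for their fasted interaction, which is a term of this difference. A share above that of all genes is thus built in, and nothing is read from the comparison.

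The chaperonin and ribosomal genes kept their direction. On the ketogenic diet 7 of 8 CCT subunits were called negative, with a median of -0.57, and 55 of 74 ribosomal protein genes, with a median of -0.51. Pdk4 (-3.08), Steap2 (-1.60) and Prrg4 (-3.84) were negative there too, and Acss3 (4.49), Fitm1 (2.24), Hadh (1.60), Hsd17b10 (1.36), Mcee (1.24), Rfx4 (1.47), Apoa4 (1.53) and Alas2 (2.33) were positive, all with an adjusted p under 0.05. For Fgf21 the ketogenic interaction was 1.17 (adjusted p = 0.22), and for Ypel4 it was -1.13 (adjusted p = 0.11). Rcan1 (-1.28), Themis (-1.13), Aqp8 (-1.45), Cenpm (-1.82) and Antxr2 (-0.59) turned negative, and Abcd2 (3.24) and Peg3 (1.32) turned positive, each with an adjusted p under 0.05 there. All 18 measured genes of mitochondrial fatty acid oxidation were called positive on the ketogenic diet, with a median of 1.28, where fasting gave 1 call and a median of 0.03. For Cpt1a the interaction was 0.997 on the ketogenic diet against -0.31 in fasting, and the difference of -1.31 (SE 0.17) had an adjusted p of 5.22e-06. Mitosis and replication genes, of which none of 33 was called in fasting by limma or IBMT (2 at an unadjusted P under 0.05) with a median of 0.07 (0.0060 without combined knockout replicate 4), were called negative in 32 cases on the ketogenic diet.

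**Figure D4:**
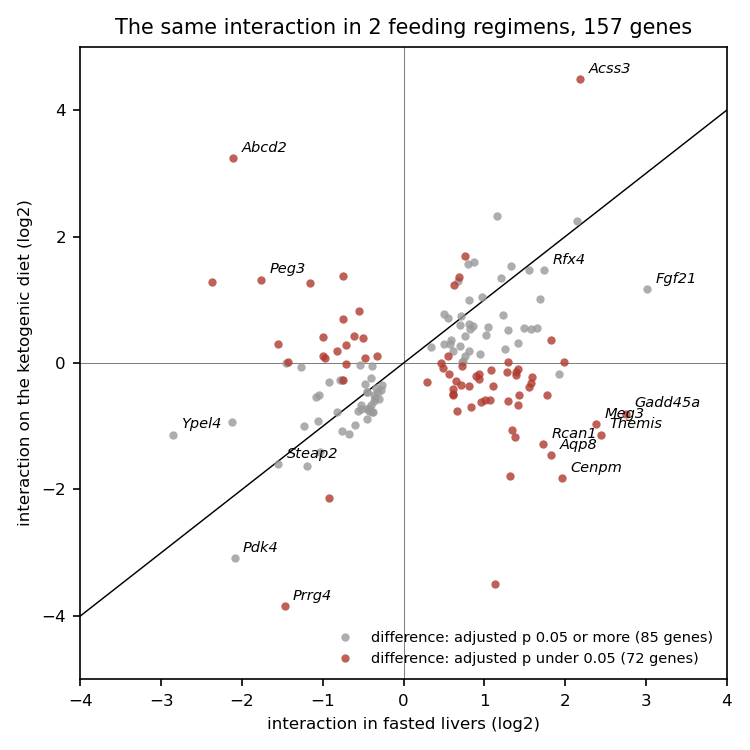
Interaction in fasted livers (x axis) against the same interaction in livers of mice on the ketogenic diet (y axis), in log2 units, for the 157 genes called in the fasted state. The line marks equality, and the 72 genes in red had a difference between the regimens at an adjusted p under 0.05, among them Abcd2 and Peg3 at the upper left and Rcan1, Themis and Meg3 at the lower right.

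The single livers mattered most through the smallest group. All 157 genes kept their sign, and a P under 0.01, when each of the 15 fasted livers was left out in turn, and 60 were called each time. In 154 genes P was highest when a PPARα−/− liver was left out, in 77 of them replicate 1. Without PPARα−/− replicate 1 the number of called genes was 103, 47 positive and 56 negative, and 84 of them were among the 157. In 18 genes at least 3 of the 4 genotypes had a mean below the median level of 4.29, and in 10 all 4 had, so that their departures are those of dim probe sets.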

How the data were processed

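Gene expression of 30 livers was measured on Affymetrix Mouse Gene 1.1 ST arrays. The authors normalized the arrays by RMA in the Bioconductor package AffyPLM, whose version is not given in the sources used here, and deposited log2 signals. The methods name a remapped chip definition, but the deposited identifiers are transcript clusters of the manufacturer, so these were used as they are. Of 35556 probe sets 21218 carry 1 gene symbol, 1881 several and 12457 none, and each of the 18820 genes was represented by the brightest of its probe sets. RMA compresses low signals, so folds of dim genes are understated.

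A linear model was fitted with limma 3.58.1 (R 4.3.3), with 1 mean for each of 8 groups, an intensity trend, and 22 residual and 3.47 prior degrees of freedom. All 30 arrays share 1 estimate of the spread. A gene was called at P under 0.001 and a departure over 1.2-fold, the criteria of the study, with Benjamini-Hochberg adjustment over all probe sets beside it. Every P and adjusted p is two-sided and comes from this limma fit. The fit was tested on simulated data. Nothing says that the animals of a group came from separate litters, so p values measure the spread between these livers. The genes and lists were chosen with earlier results of these data known. Named are the 10 largest interactions in each direction, the 10 of lowest P, up to 2 called genes per list, 6 additive genes and genes the study names, without unnamed transcripts. For the largest interactions the sign had to hold with P under 0.01 without any single fasted liver, and 1 group mean had to exceed the median signal, a limit not set on those of lowest P, of which Zfp979 lay below it in all 4 genotypes. Of the list entries 84 matched no gene and 9 matched through a synonym. Alternatives were other spreads, scalings, filters and limits, a replicate block and leaving out each fasted liver. Replicate numbers are shared by the genotypes, but over 21 pairs the deviations of livers with the same number correlated at -0.11 to 0.10, so no pairing was used. Promoter sequences are those of RefSeq. Matplotlib 3.10.9 under Python 3.11.15 drew the figures. No array was left out.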

Additional observations from a re-analysis of the deposited data

Results flagged for a closer look

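In 8 of 150 groups of 4 livers tested for the named genes, 1 liver lay so far from the other 3 that its gap to the nearest exceeded Dixon's 95% limit for 4 values, and chance alone gives this in about 1 of 20 groups. These were Fitm1 in combined knockout replicate 2 (6.72, nearest 7.88), Rcan1 in combined knockout replicate 4 (8.70, nearest 9.37), Aqp8 in CREB3L3−/− replicate 3 (5.88, nearest 6.32), Maged1 in CREB3L3−/− replicate 1 (8.41, nearest 8.61), Zfp979 in WT replicate 3 (3.77, nearest 3.28), and in WT replicate 4 Prrg4 (5.19, nearest 5.01), Apoa4 (11.71, nearest 12.86) and Pla2g12a (6.58, nearest 6.17).

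For 27 of the 50 named genes the interaction differed between fasting and the ketogenic diet at an adjusted p under 0.05 by limma, and in 20 of them its sign was opposite. The fasted minus the ketogenic interaction was positive for Gadd45a (3.55), Themis (3.57), Meg3 (3.34), Cenpm (3.78), Aqp8 (3.28), Rcan1 (3.01), Prrg4 (2.37), Zfp979 (1.93), Tmem28 (1.88), Antxr2 (1.66), Olig1 (1.45), Crip2 (1.19) and Ctsd (0.60). It was negative for Abcd2 (-5.35), G6pc (-3.67), Adgrf1 (-3.65), Peg3 (-3.09), Acss3 (-2.31), Ppara (-2.06), Erdr1 (-1.85), Cpt1a (-1.31), Miga2 (-1.05), Tram2 (-0.84), Hsd17b10 (-0.67), Mcee (-0.61), Rtf2 (-0.54) and Maged1 (-0.49). Over all genes 19.3% passed this limit. Most named genes were chosen by their fasted interaction, which is a term of this difference, so the shares are not compared.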

How the results depend on the processing

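The number of called genes (157) was within 1.5 times of itself under 11 other fits, scalings and filters (120 to 232), and 41 and 66 at an adjusted p under 0.05 and at over 2-fold. The genes changed more than their number, since with the fasted arrays fitted alone only 104 of the 189 called genes were among the 157. In that fit 5 of the 50 named genes lost their call and 1 gained it. Without each fasted liver in turn the number of called genes ran from 103, without PPARα−/− replicate 1, to 196, without combined knockout replicate 2. The genes called in the same direction on the ketogenic diet (49) numbered 74 with array weights, 11 and 13 at the stricter limits, and 31 (without PPARα−/− replicate 3) to 69 without single livers. Called list genes (19) numbered 30 with each regimen fitted alone, 7 and 9 at the stricter limits, and 14 to 28 without single livers. Additive genes (16) numbered 0 within 1.2-fold, 41 within 2-fold, 33 with array weights, and 12 to 27 (without combined knockout replicate 4) without single livers. Positive genes were 58.6% of calls, and 68.3% after a repeated quantile normalization and 45.6% without PPARα−/− replicate 1, while no scaling moved the median interaction of all genes by more than 0.02. Without PPARα−/− replicate 1 the interactions of the additive genes Tram2 and Miga2 turned positive, with ranges over single livers left out of -0.27 to 0.017 and -0.24 to 0.092, and no other of the 50 named genes changed sign under any setting. A replicate block, for numbers that do not pair the livers (in 7 of 21 comparisons a liver correlated best with its own number), gave 144 genes, 120 of them among the 157, and 7 of the 50 named genes lost their call under it. The causes were not tested. With 3 PPARα−/− livers and a median SE of 0.20, small departures can be missed, and signals near background give no reliable fold.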
